A study of Mus musculus with 83 samples.

Results

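Single morulae were ranked by how strongly they expressed 3 genes of the trophectoderm, and the strongest were compared with the weakest over all other genes. The score of an embryo was the mean of log2(TPM + 1) of Cdx2, Krt8 and Krt18, where TPM is a gene's share of the transcripts of 1 embryo scaled to a sum of 1000000. Of 43 morulae, selected on these measured values, the 14 with the highest scores form the high side and the 14 with the lowest form the low side, so 28 of the 83 libraries of the series are compared. The other 15 morulae, called middle morulae here, and 34 4-cell embryos served as embryos that the comparison did not use. The embryos came from a study of paternal heat. Male mice of 8 to 12 weeks were kept for 7 days at 35 °C during 8 h and at 25 °C during the other 16 h of each day, or at 21 °C as sham controls. Their sperm fertilized the eggs, and polyadenylated RNA of single embryos was sequenced. The morulae comprise 22 embryos of sham control fathers and 21 of heat-exposed fathers, and the 4-cell embryos 16 and 18. Parents, litter and collection time of single embryos are not named in the labels, so p-values reflect differences among embryos that could be siblings.

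In the morula, cells on the outside become polarized and begin to form the trophectoderm, the epithelium that pumps fluid into the blastocyst and later builds the placenta, while inner cells keep the pluripotency program. In outer cells the Hippo pathway is off, the coactivators YAP and TAZ bind the transcription factor TEAD4, and Cdx2 and Gata3 are switched on. CDX2 is the homeobox factor needed to maintain the trophectoderm. KRT8 and KRT18 are the keratin pair of its intermediate filaments.

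The score ran without a gap from 3.56 to 9.06. On the low side it lay between 3.56 and 5.77 with a median of 5.09, and on the high side between 7.54 and 9.06 with a median of 8.25. The embryo just inside the low side scored 5.77 and its middle neighbour 5.83. The embryo just inside the high side scored 7.54 and its middle neighbour 7.50, so both limits cut through a continuous series. The 3 scoring genes set the sides, and their values are a description only. Cdx2 had 1.25 TPM in the lowest, 8.09 TPM in the median and 20.6 TPM in the highest embryo of the low side, and 46.8, 112 and 226 TPM on the high side. Krt8 ran from 13.4 to 84.7 TPM with a median of 48.7 TPM on the low side, and from 210 to 1438 TPM with a median of 449 TPM on the high side. Krt18 ran from 22.2 to 182 TPM with a median of 68.7 TPM, and from 317 to 945 TPM with a median of 449 TPM. In the 34 4-cell embryos the highest values of the 3 genes were 5.55, 13.3 and 31.5 TPM, so low-side morulae mostly lay above the 4-cell range in the keratins (the 4-cell median was 0.42 TPM for Krt8).

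**Figure D1:**
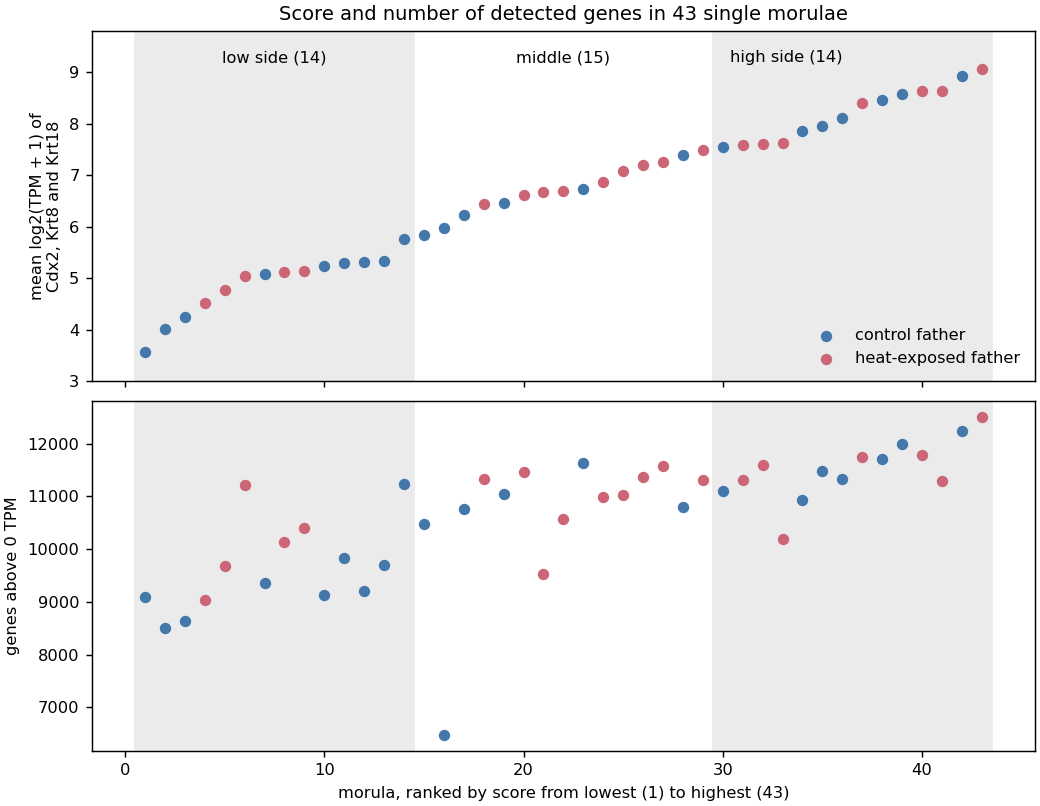
The upper panel plots the score of each of 43 morulae in rank order, and the lower panel the number of genes above 0 TPM in the same embryo; shaded bands are the 14 lowest and the 14 highest, and colours give the father's group. The score rises without a gap from 3.56 to 9.06, both groups occur on both sides, and the number of detected genes is higher on the high side (11510 against 9651 on average).

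Embryos of both paternal groups fell on both sides. The high side held 7 control and 7 heat embryos, and the low side 9 control and 5 heat embryos. The heat share was 50% and 35.7%, a difference of 14.3 percentage points (two-sided Fisher's exact test, p = 0.704). With 21 embryos per side the shares were 57.1% and 38.1%, and with 10 per side 40% and 50%. Without the embryos that stand apart, described below, they were 50% and 50%. Over all 43 morulae the score was 6.88 ± 1.33 in heat embryos (SD, n = 21) and 6.36 ± 1.56 in control embryos (SD, n = 22), a difference of 0.519 that lay within the spread between embryos (two-sided permutation test, p = 0.252). After regression of the score on the number of detected genes, the heat minus control difference was -0.0716 (two-sided permutation test, p = 0.813). The difference between the sides did not differ detectably by paternal group for any gene. limma called 0 of 8592 genes for the interaction of side and paternal treatment (0.0%), with 252 at an unadjusted p under 0.05. Within the 16 control embryos of both sides 5021 genes were called, and within the 12 heat embryos 4058.

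The sides differed in more than trophectoderm genes, and libraries that stand apart sit at both ends. The number of genes above 0 TPM was 9651 ± 851 on the low side and 11510 ± 575 on the high side (SD, n = 14 each; two-sided permutation test, p = 2e-05, the smallest that the resamples can give). The most abundant 100 genes of an embryo held 44.5 to 55.6% of TPM on the low side and 29.4 to 44.4% on the high side, with no overlap. The first principal component, computed without the scoring genes, held 44.7% of the variance among 8592 genes and separated the sides (low side -104 to -14.6, high side 3.53 to 127). At the low end, 4 control embryos had 158 to 283 TPM of Pou5f1, the pluripotency factor OCT4, against 619 to 2215 TPM in the other 39 morulae. Their Actb level was 540 to 1258 TPM. At the high end, 6 embryos (3 control, 3 heat) had 151 to 281 TPM of Gata3, against at most 106 TPM in the other 37. These 6 embryos were also the 6 with the highest scores, ranks 38 to 43. The count of calls in each gene list is also given without both sets. That fit keeps 8 high-side and 10 low-side embryos and a narrower range of scores. Its lower counts and smaller differences cannot be told apart from the smaller sample and range. Pou5f1 and Gata3, which picked the sets, are also tested genes. Among markers of other cells, the granulosa genes Foxl2 and Has2 and the sperm genes Tnp1 and Akap4 were at 0 in all 43 morulae. The granulosa genes Amh and Fshr were each above 0 in 0 low-side embryos and 1 high-side embryo, Col1a1 in 3 and 3, and the sperm gene Odf1 in 1 and 3. Prm1 and Prm2, sperm protamines, were at 0 in all low-side embryos and above 0 in 3 and 2 high-side embryos. Only 1 of 15 cumulus genes and 1 of 13 sperm genes were abundant enough to test, the junction protein Gja1 (log2 difference 1.73) and the centrosome gene Odf2 (1.02), 2 genes that other cells express as well. The cumulus list summed to 0.00100 to 0.00734% of TPM on the low side and 0.00381 to 0.0333% on the high side. Nearly all of that sum was Gja1, at 10.0 to 73.4 TPM on the low side and 38.1 to 332 TPM on the high side. The 4-cell median of Gja1 was 33.9 TPM. The sperm list summed to at most 0.000413% and 0.00158%. The part of other cells in the results was not tested.

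Most of the transcriptome was higher on the high side. A gene was tested if 14 or more of the 43 morulae had 1 TPM or more, a filter blind to the sides, and without the scoring genes. By limma on log2(TPM + 1), 5925 of 8592 genes were called at a Benjamini-Hochberg adjusted p under 0.05 (69.0%), of which 5325 were higher on the high side (62.0%) and 600 lower (6.98%). The median log2 difference of all genes was 0.88, its quartiles were 0.24 and 1.65, and 81.9% of genes lay above 0. The sides were drawn from the expression of these same embryos, so a call says that a gene moves with the scoring genes, not that an exposure changed it. TPM has a fixed sum, so each value is relative to the rest of the embryo. The 5325 higher genes had a median low-side level of 2.58 TPM and a median high-side level of 10.2 TPM, and the 600 lower genes 321 and 218 TPM. The lower genes were also compact, with a median genomic span of 5656 bp against 20504 bp for the higher genes and 17761 bp for all tested. Rescaling the embryos by median ratios moved the median difference from 0.88 to 0.25 and the share of calls that were higher from 89.9% to 62.9% (3027 higher, 35.2%, and 1786 lower, 20.8%). With detected genes as a covariate, 1264 genes were higher (14.7%) and 93 lower (1.08%). Without both sets that stand apart, 3460 were higher (40.3%) and 363 lower (4.22%). Of the genes tested, 63 reached 1 TPM in no low-side embryo and so passed the filter through other embryos. The reverse, 1 TPM in no high-side embryo, held for 0 genes.

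Among genes with no overlap between the sides, 691 were higher (8.04%) and 17 lower (0.198%). The differences given below are on the log2(TPM + 1) scale, high side minus low side, and can be read against the median of 0.88. List counts in other settings are read against all genes in the same setting. These were 35.2% higher and 20.8% lower under median-ratio scaling. With detected genes as a covariate they were 14.7% and 1.08%, and without both sets 40.3% and 4.22%.

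Promoter sequences of 4 trophectoderm genes are shown: the scoring gene Cdx2, the trophectoderm factor Gata3, the epithelial ETS factor Elf3 and the claudin Cldn4. Cdx2 helped to set the sides. Gata3, Elf3 and Cldn4 were higher on the high side with no overlap, as were 8.04% of all genes tested. Each sequence is the 250 bases before the RefSeq start site in GRCm38.p6, on the gene's strand, with matches to 4 short motifs in capitals. Motifs were searched on both strands. They were CATTCC, bound by TEAD factors, GCCNNNGGC, bound by AP-2 factors such as TFAP2C, AGATAA, bound by GATA factors, and TTTATG, bound by CDX factors. The windows are chr5:147307250-147307499 on the minus strand for Cdx2, chr2:9878601-9878850 minus for Gata3, chr1:135258473-135258722 minus for Elf3, and chr5:134946935-134947184 minus for Cldn4.
Cdx2: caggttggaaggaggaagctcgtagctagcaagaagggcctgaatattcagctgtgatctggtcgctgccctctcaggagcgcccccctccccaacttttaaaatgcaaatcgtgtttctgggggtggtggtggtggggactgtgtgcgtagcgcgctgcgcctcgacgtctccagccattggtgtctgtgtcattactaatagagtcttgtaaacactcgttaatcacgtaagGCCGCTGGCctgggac
Gata3: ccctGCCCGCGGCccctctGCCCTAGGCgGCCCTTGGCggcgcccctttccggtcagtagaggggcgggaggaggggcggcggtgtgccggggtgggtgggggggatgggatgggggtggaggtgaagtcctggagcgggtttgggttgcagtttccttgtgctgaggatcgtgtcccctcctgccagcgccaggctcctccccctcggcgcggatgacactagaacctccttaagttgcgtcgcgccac
Elf3: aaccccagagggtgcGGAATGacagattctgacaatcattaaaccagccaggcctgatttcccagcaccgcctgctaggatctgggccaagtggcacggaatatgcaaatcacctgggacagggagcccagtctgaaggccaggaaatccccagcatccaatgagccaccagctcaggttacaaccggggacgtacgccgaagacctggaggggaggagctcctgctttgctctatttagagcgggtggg
Cldn4: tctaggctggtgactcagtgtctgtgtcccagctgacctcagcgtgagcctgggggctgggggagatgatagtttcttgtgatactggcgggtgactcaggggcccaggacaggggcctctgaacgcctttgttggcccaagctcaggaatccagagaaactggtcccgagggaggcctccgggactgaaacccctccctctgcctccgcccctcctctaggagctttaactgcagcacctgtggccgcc
Capitals mark 1 AP-2 match for Cdx2, 3 AP-2 matches for Gata3 and 1 TEAD match on the opposite strand for Elf3, and the Cldn4 window held none of these letters. The TEAD motif was found in 10.0% of the windows of genes higher on the high side, in 12.7% of those of lower genes and in 10.3% of all tested genes with a window. The AP-2 motif was in 20.8%, 13.5% and 19.7%, the GATA motif in 5.27%, 7.08% and 5.62%, and the CDX motif in 4.96%, 7.94% and 5.48%. Over all 27025 genes with a window the shares were 12.6%, 13.6%, 10.3% and 11.1%. A match describes letters in this window and not a bound site.

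Of 10 transcription factors of the trophectoderm tested among 17 in the table, 9 were called higher on the high side and 0 lower, where 62.0% of all tested genes were called higher and 6.98% lower. They had a median log2 difference of 2.32 against 0.88 for all genes. Under median-ratio scaling 6 were higher, beside 35.2% of all genes, and the median was 1.42. With detected genes as a covariate 4 were higher, beside 14.7% of all genes, and without both sets 7 were, beside 40.3%. Elf3, an ETS factor of epithelia, had the largest difference. It ran from 11.2 to 60.1 TPM with a median of 22.7 TPM on the low side, and from 145 to 679 TPM with a median of 384 TPM on the high side. All high-side embryos therefore lay above all low-side embryos (log2 difference 3.95, SE 0.24; limma adjusted p = 2.38e-14). Gata3, which acts beside CDX2 in the trophectoderm, had 12.3, 26.4 and 44.4 TPM in the lowest, median and highest low-side embryo and 57.8, 106 and 281 TPM on the high side (2.28, SE 0.25; limma adjusted p = 2.05e-09). In the middle morulae its median was 53.7 TPM and in 4-cell embryos 0.59 TPM, so its medians followed the order 4-cell, low, middle, high. The Krüppel-like factor gene Klf6 went from a median of 1.89 to 34.2 TPM, and Tfap2c, an AP-2 factor, from 6.22 to 37.3 TPM, both with no overlap.

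Tead4, the DNA-binding partner of YAP, was 1.75 to 33.9 TPM on the low side with a median of 11.9 TPM, and 36.7 to 67.0 TPM on the high side with a median of 60.9 TPM (log2 difference 2.36, SE 0.35; limma adjusted p = 6.31e-07). The sides did not overlap, but the 4-cell median was 66.7 TPM, above the median of either side. With detected genes as a covariate its difference was 0.81 (limma adjusted p = 0.27). Later trophectoderm genes were low or absent. Eomes had a median of 0.195 TPM on the low side and 1.05 TPM on the high side (0.56; limma adjusted p = 0.0498). The call of Eomes was lost under median-ratio scaling (0.19; limma adjusted p = 0.523), with detected genes as a covariate (0.07; limma adjusted p = 0.939) and without both sets (limma adjusted p = 0.179). Elf5, a factor of the later trophoblast, was listed at 0 in all 43 morulae and all 4-cell embryos.

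**Figure D2:**
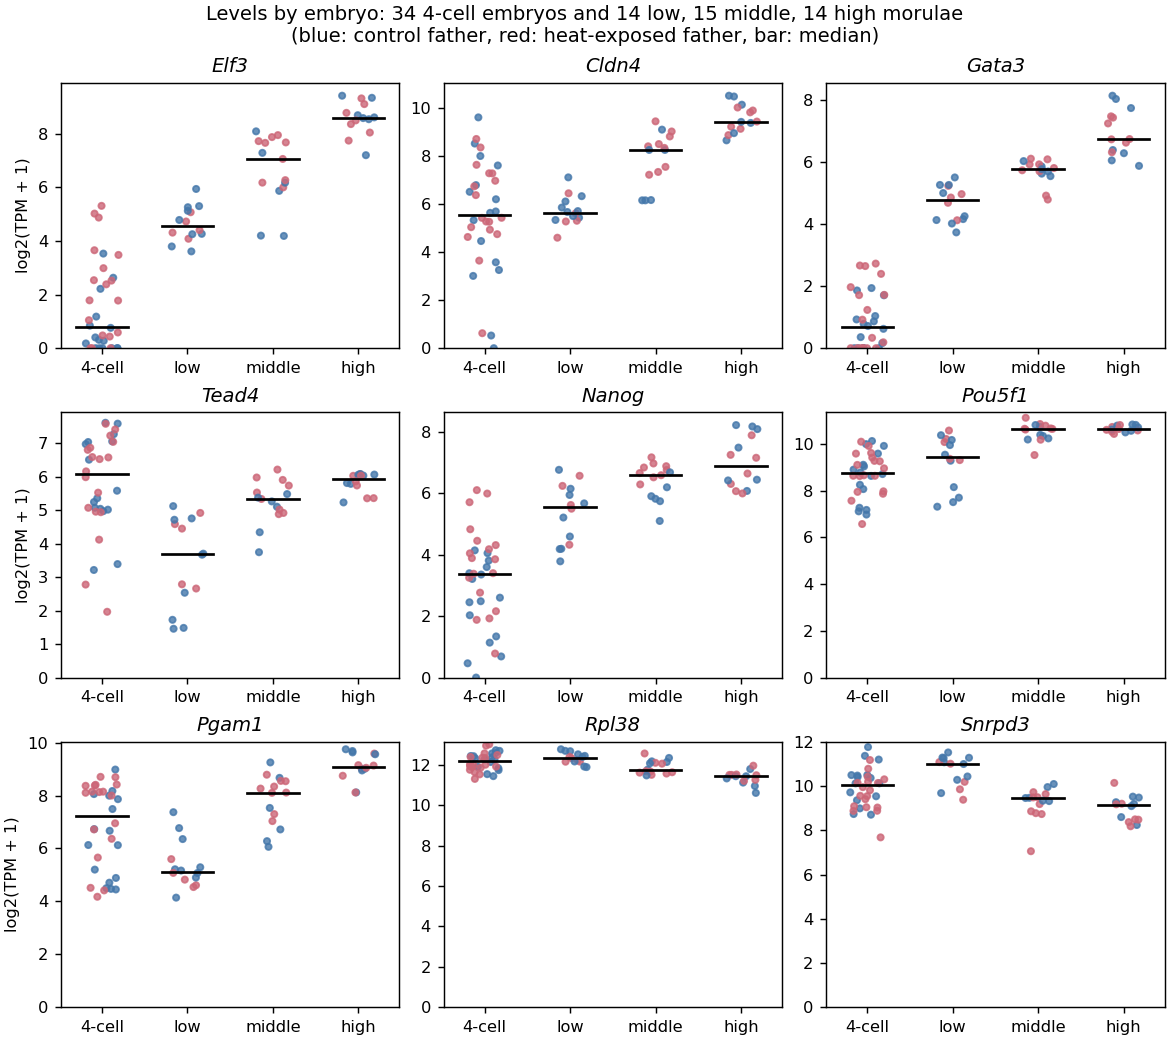
Each panel plots log2(TPM + 1) of 1 gene in single embryos of 4 groups (34 4-cell embryos and 14 low, 15 middle and 14 high morulae); bars are medians and colours give the father's group. Elf3, Cldn4 and Gata3 do not overlap between the low and the high side, Tead4 and Pgam1 are lower on the low side than at 4-cell by median, and Rpl38 and Snrpd3 go the other way.

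Of 30 genes of the epithelium, its junctions, pump and water channels tested among 37, 24 were called higher and 0 lower, beside 62.0% and 6.98% of all genes, with a median log2 difference of 1.25. Median-ratio scaling gave 13 higher and 5 lower, the covariate 8 and 0, and the fit without both sets 14 and 0. The tight junction claudins led. Cldn4 ran from 23.2 to 137 TPM with a median of 49.0 TPM on the low side and from 401 to 1455 TPM with a median of 686 TPM on the high side (3.83, SE 0.22; limma adjusted p = 1.03e-14). Cldn6 had medians of 47.0 and 586 TPM (3.68, SE 0.31) and Cldn7 229 and 680 TPM (1.67, SE 0.19), again with no overlap. The junction adhesion molecule gene F11r had medians of 31.8 and 209 TPM. Atp1b1, the beta subunit of the sodium pump that drives blastocoel filling, ran from 2.12 to 13.8 TPM on the low side and from 12.3 to 80.3 TPM on the high side (2.20, SE 0.27; limma adjusted p = 1.84e-08), so the extremes of the sides met. In the fit the water channel gene Aqp3 had 3.19 (SE 0.41; limma adjusted p = 5.55e-08) and the further keratin Krt7 had 1.98 (SE 0.38; limma adjusted p = 3.35e-05), and with detected genes as a covariate neither was called (1.56 and 0.97; limma adjusted p = 0.067 and 0.296). Aqp3 and Krt7 lie outside the rule for named genes and were chosen after their values were seen.

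S100 proteins and annexins bind calcium, and several mark the trophectoderm. Of 11 tested among 19, 7 were higher and 1 lower, shares near the 62.0% and 6.98% of all genes. Their median log2 difference was 0.95, also near that of all genes. Without both sets 5 were higher and 0 lower, with the covariate 4 and 0, and under median-ratio scaling 5 and 4. The lower one was S100a13 (-0.79). Annexin genes led: Anxa2 had 5.99 to 129 TPM on the low side and 162 to 438 TPM on the high side (3.06, SE 0.34), Anxa7 medians of 4.96 and 52.3 TPM (3.17, SE 0.29), and Anxa3 and Anxa4 differences of 3.01 and 1.96, of which Anxa4 was not called with the covariate (1.23; limma adjusted p = 0.089). S100a11 behaved otherwise. It had 198, 268 and 437 TPM on the low side and 169, 325 and 545 TPM on the high side, with wide overlap (0.14, SE 0.17; limma adjusted p = 0.453), although it was 2.10 TPM in the median 4-cell embryo. Its difference was -0.80 under median-ratio scaling (limma adjusted p = 0.00228).

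Hippo pathway and polarity genes were called higher in 18 of 25 tested and lower in 1, Vgll4 (-0.46), shares near the 62.0% and 6.98% of all genes, with a median of 1.01 against 0.88. Without both sets 10 were higher and 0 lower, with the covariate 2 and 0, and under median-ratio scaling 12 and 3. Rhoa, the small GTPase of the actin cortex, had medians of 16.6 and 167 TPM (3.20, SE 0.30). Wwtr1, which encodes TAZ, had medians of 4.04 and 31.1 TPM with no overlap (2.44, SE 0.35), but with detected genes as a covariate its difference was 0.87 (limma adjusted p = 0.214). Cyr61, a target of YAP and TAZ, had medians of 2.13 and 35.6 TPM (2.93, SE 0.42), and 1.23 with that covariate (limma adjusted p = 0.167). Amot, the angiomotin that holds YAP in the cytoplasm of inner cells, had medians of 0.505 and 2.33 TPM (1.11, SE 0.17). Yap1 itself had 0.47 (SE 0.23; limma adjusted p = 0.0703) and was also chosen after its value was seen.

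Of 22 pluripotency genes tested among 24, 13 were higher and 1 lower, shares near the 62.0% and 6.98% of all genes. Their median was 0.70 against 0.88 for all genes. Without both sets 9 were higher and 1 lower, and with the covariate 1 and 0. Median-ratio scaling gave 6 higher, 4 lower and a median of -0.08. Pou5f1 had 158, 698 and 1518 TPM on the low side and 1372, 1577 and 1816 TPM on the high side (1.40, SE 0.28; limma adjusted p = 5.17e-05). With detected genes as a covariate its difference was 0.25 (limma adjusted p = 0.722), and under median-ratio scaling 0.45 (limma adjusted p = 0.123). Nanog had medians of 46.2 and 120 TPM (1.68, SE 0.32). Without both sets its adjusted p by limma was 0.05. With the covariate its difference was 0.49 (limma adjusted p = 0.539). Sall4, Dppa4 and Dppa2 had 1.67, 1.73 and 1.75, and with the covariate 1.11, 0.74 and 0.89, of which only Sall4 was called. Sox2, which marks inner cells, was above 0 in 9 of 14 low-side and 12 of 14 high-side embryos, at no more than 10.6 and 3.07 TPM (-0.17, SE 0.37; limma adjusted p = 0.693). The called gene that was lower was Dppa3, a maternally supplied factor and one of the most abundant transcripts, at a median of 17532 TPM on the low side and 9361 TPM on the high side (-0.87, SE 0.10; limma adjusted p = 1.38e-08). With detected genes as a covariate the difference of Dppa3 was -0.30 (limma adjusted p = 0.0839). The 4-cell median of Dppa3 was 17594 TPM. Primitive endoderm genes were higher in 3 of 6 tested among 16, beside 62.0% of all genes. Lamb1 was at 1.21, Fgfr1 at 0.91 and Gata6 at 0.61, of which Gata6 was -0.29 under median-ratio scaling. Without both sets 3 of these genes were called higher, and with the covariate 0. The remaining one among the 4 with the smallest p, Col4a1, had 0.33 (limma adjusted p = 0.182).

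Of 29 oocyte and maternal genes, 9 could be tested, 2 were higher and 0 lower, beside 62.0% and 6.98% of all genes. The median was -0.22. Median-ratio scaling gave 2 higher and 2 lower, the covariate 0 and 0, and the fit without both sets 2 and 0. Those called were Khdc3, a member of the subcortical maternal complex with medians of 278 and 1646 TPM (2.59, SE 0.33), and Padi6 (1.50). With the covariate neither was called (1.23 and 0.57; limma adjusted p = 0.0654 and 0.468). The 4-cell median of Khdc3 was 116 TPM, and Khdc3 rose by 3.39 from 4-cell embryos to middle morulae (limma adjusted p = 1.46e-11). Zp3, a zona pellucida gene, had medians of 8.04 and 10.4 TPM on the sides against 58.8 TPM at 4-cell (0.42, SE 0.34; limma adjusted p = 0.277). Omt2a, an oocyte gene that was at 83.6 TPM at 4-cell, had medians of 1.50 and 0.165 TPM (-0.76; limma adjusted p = 0.10; under median-ratio scaling -1.07, limma adjusted p = 0.0398), and Tle6 had 0.67 (limma adjusted p = 0.0663). The growth factor gene Gdf9 was above 0 in 4 of 14 low-side and 7 of 14 high-side embryos and was too low to test. Of 23 genes listed for the 2-cell program most were too low to test. Of the 6 tested, 5 were higher, beside the same 62.0% of all genes. They were Pramel6 (56.6 and 444 TPM by median, difference 3.11, SE 0.24), Zfp809 (2.31), Eif1a (1.95, not called with the covariate), B020004J07Rik (1.93) and Obox6 (2.64), the last named because it completes the count. The fit without both sets also gave 5 higher, and the covariate 3, with Eif1a and Obox6 not among them. From 4-cell embryos to middle morulae, 2 of the 6 tested genes rose, Pramel6 (1.05) and Zfp809 (1.04), and 1 fell. Their difference between the sides is therefore no measure of a 2-cell state. Zscan4d stayed at or below 1.29 TPM in both sides.

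Counts of metabolic, cell cycle and stress genes are read against the 62.0% of all genes called higher and the 6.98% called lower. The shares of all genes were 35.2% and 20.8% under median-ratio scaling, 14.7% and 1.08% with the covariate, and 40.3% and 4.22% without both sets. Of 15 glycolysis genes tested among 19, 12 were higher and 1, the hexokinase Hk2, lower (-0.71), with a median of 2.20. Median-ratio scaling gave 11 and 1, the covariate 7 and 0, and the fit without both sets 12 and 1. Pgam1, phosphoglycerate mutase, had 16.6, 33.8 and 165 TPM on the low side and 277, 547 and 864 TPM on the high side (3.76, SE 0.26; limma adjusted p = 4.89e-13). The kinase gene Pgk1 had medians of 2.83 and 59.5 TPM, the enolase Eno1 16.9 and 153 TPM, and the aldolase Aldoa 137 and 642 TPM, each with no overlap. Eno1b, among the 15 largest differences (4.20), is close in sequence to Eno1, so reads of these genes may have been divided between them by the authors' counting.

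Cell cycle genes were called higher in 30 of 35 tested among 37 and lower in 1, with a median of 1.41. Without both sets 17 were higher and 1 lower, under median-ratio scaling 17 and 1, and with the covariate 10 and 0. Ccna2, cyclin A2, had 12.6, 18.4 and 44.9 TPM on the low side and 80.0, 168 and 275 TPM on the high side (3.11, SE 0.20; limma adjusted p = 1.67e-13). The mitotic genes Cdc20, Aurka and Ccnb1 had 3.60, 3.75 and 2.77, with no overlap. Their 4-cell medians of 363, 140 and 738 TPM lay above the low-side medians of 43.3, 28 and 73.7 TPM. The lower gene was Cdkn1a, an inhibitor of cyclin-dependent kinases (-1.18, SE 0.31; limma adjusted p = 0.00151), named here because it is the 1 exception.

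Genes of the integrated stress response, which include serine and amino acid supply, were higher in 14 of 19 tested among 22, with a median of 1.98. Without both sets 12 were higher and with the covariate 6. Shmt2, Phgdh and Slc3a2 had 3.69, 3.59 and 3.31 with no overlap, and Xbp1 3.62. Cholesterol synthesis genes were higher in 22 of 24 tested among 26 and lower in 0, with a median of 1.43. Without both sets 17 were higher and with the covariate 8. Of these Nsdhl, Fdft1, Hsd17b7 and the regulator Srebf2 had 3.38, 2.83, 2.64 and 1.97, with no overlap. Heat shock and chaperone genes were higher in 18 of 23 tested among 27 and lower in 3, the abundant Hsp90aa1 (-0.36), Hsp90ab1 (-0.25) and Hspe1 (-0.67), with a median of 1.36. Without both sets 13 were higher and 3 lower, with the covariate 3 and 2, and under median-ratio scaling 11 and 5. Hspb8, Fkbp4, Hspa14 and the heat shock factor Hsf1 had 3.20, 3.18, 3.07 and 2.63, and Hsf1 was not called with the covariate (1.10; limma adjusted p = 0.0756). The inducible chaperone Hspa1a was too low to test, at no more than 1.25 TPM on the low and 3.71 TPM on the high side. Oxidative stress genes were higher in 15 of 27 tested among 29 and lower in 7, with a median of 0.81. The share of higher calls lay near that of all genes, and the share of lower calls above it. Without both sets 12 were higher and 4 lower, with the covariate 5 and 0, and under median-ratio scaling 9 and 12. Hmox1 had 3.39, the peroxiredoxins Prdx3 and Prdx6 2.95 and 2.19, and the reductase Gsr 2.32. The list of p53 and apoptosis genes had 9 higher of 16 tested among 22 and 2 lower, Cdkn1a and Bax (-0.54; median of the list 0.87), with Bid at 3.22, Aen at 2.59, Bcl2l1 at 2.24 and Trp53 at 1.96. Without both sets 6 were higher and 2 lower, and with the covariate 2 and 0, Bcl2l1 and Trp53 not among them (limma adjusted p = 0.374 and 0.0949). Imprinted genes were higher in 7 of 13 tested among 26 and lower in 1, Phlda2 (-0.80; median of the list 0.59), with Sgce at 2.17, Slc38a4 at 1.50, Sfmbt2 at 1.06 and Impact at 0.94. Without both sets 3 were higher and 1 lower, and with the covariate 1 and 1. The shares of higher calls in the p53 and imprinted lists lay near that of all genes for lists of this size.

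Of 13 genes often used as references, all tested, 9 were higher and 1, B2m, lower (-0.45), near the 62.0% and 6.98% of all genes, with a median of 1.76, above that of all genes. Without both sets 8 were higher and with the covariate 4, and under median-ratio scaling 7 were higher and 3 lower. Hprt had 226, 304 and 1297 TPM on the low side and 1042, 2264 and 3858 TPM on the high side. Gapdh had medians of 90.1 and 302 TPM (1.88, SE 0.30; with the covariate 0.78, limma adjusted p = 0.263), and Ywhaz had a log2 difference of 2.56. Actb had 540, 2798 and 5727 TPM on the low side and 2761, 4698 and 8963 TPM on the high side (1.01, SE 0.27; limma adjusted p = 0.00152), and 0.06 under median-ratio scaling (limma adjusted p = 0.874) and 0.21 with the covariate (limma adjusted p = 0.792).

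**Figure D3:**
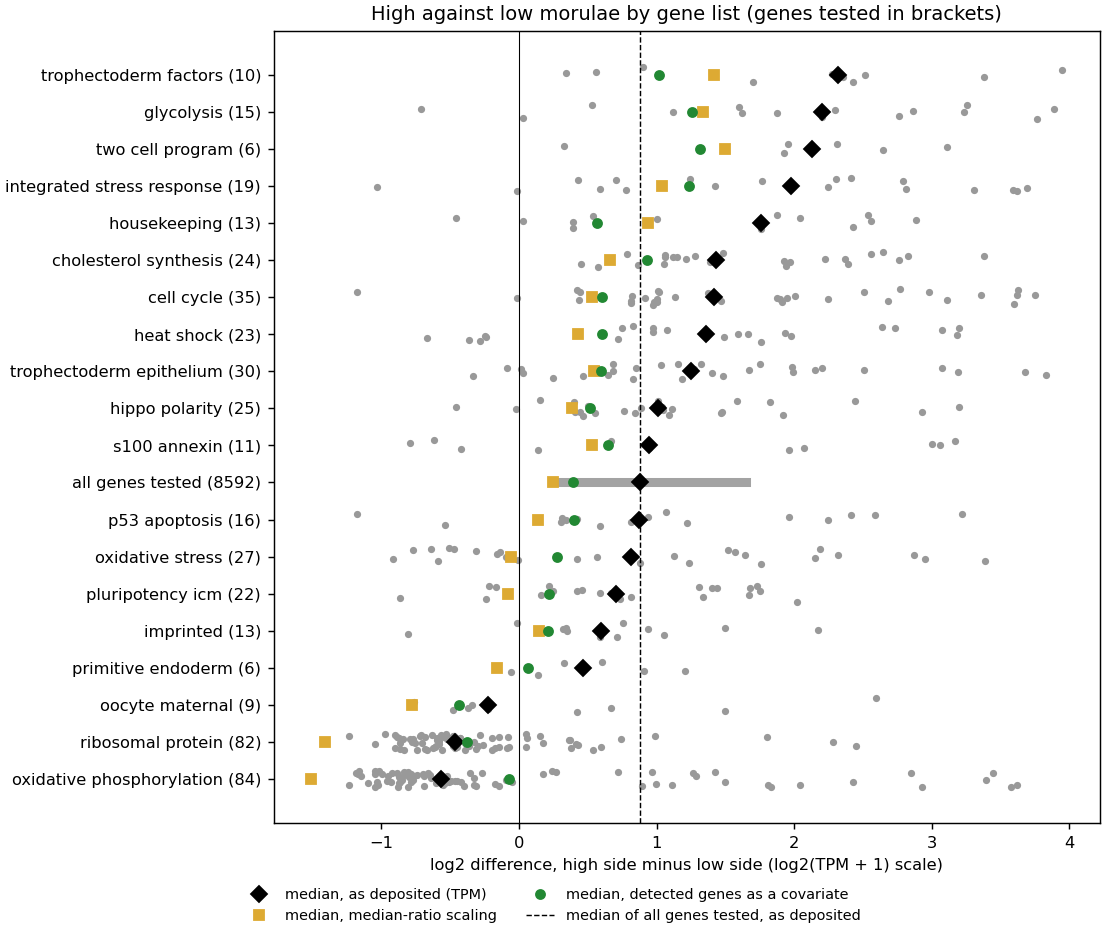
Grey points are single genes and black diamonds the median log2 difference of each gene list (high side minus low side); yellow squares and green circles give the median under median-ratio scaling and with detected genes as a covariate, and the grey bar spans the quartiles of all 8592 genes. Trophectoderm factors (2.32) and glycolysis genes (2.20) have the highest medians as deposited. The 2-cell list, with only 6 of 23 genes tested, has the highest under median-ratio scaling (1.50) and with the covariate (1.32). The dashed line marks the median of all genes (0.88). Ribosomal protein and oxidative phosphorylation genes lie below 0 by median.

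Ribosomal protein genes held 24.0 to 32.6% of TPM on the low side and 13.1 to 25.7% on the high side. Of 82 tested among 83, 53 were lower, 11 higher and 18 not called, beside 6.98% of all genes called lower, with a median of -0.46. Median-ratio scaling gave 76 lower and 3 higher, the covariate 19 and 2, and the fit without both sets 40 and 9. Rpl38 had 3797, 5273 and 7004 TPM on the low side and 1562, 2775 and 3986 TPM on the high side, so the extremes of the sides met (-0.97, SE 0.11; limma adjusted p = 1.03e-08). Rpl4 and Rpl3, in contrast, went from medians of 374 and 354 TPM to 2185 and 1974 TPM (2.45 and 2.28, SE 0.23 and 0.24). The 11 higher genes had a median genomic span of 4263 bp and the 53 lower genes 3230 bp.

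Nuclear genes of oxidative phosphorylation split in the same way. Of 84 tested among 85, 52 were lower and 19 higher, beside 6.98% and 62.0% of all genes, with a median of -0.57. With detected genes as a covariate 9 were lower and 8 higher, without both sets 37 and 16, and under median-ratio scaling 62 and 11. The higher ones had a median span of 16566 bp and a median low-side level of 76.6 TPM, and the lower ones 5851 bp and 1158 TPM. Atp5b, the beta subunit of ATP synthase, had 60.6, 96.7 and 389 TPM on the low side and 746, 1441 and 1815 TPM on the high side (3.62, SE 0.20; limma adjusted p = 1.03e-14). Atp5a1 and Uqcrc2 had 3.44 and 3.58. The transcript length or position behind these splits was not tested.

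Across all genes, the largest differences belonged to genes of varied function. The protease genes Lgmn and Ctsc led with the X-linked Mageb16. Lgmn, legumain, had 0, 3.22 and 16.3 TPM on the low side and 29.4, 98 and 224 TPM on the high side (4.73, SE 0.37; limma adjusted p = 4.67e-12). Mageb16 had medians of 1.47 and 52.6 TPM (4.40) and Ctsc, cathepsin C, 8.53 and 177 TPM (4.39). Tex19.1, a germ line and placenta gene that restrains retrotransposons in mice, had 15.4, 35.4 and 195 TPM on the low side and 254, 751 and 1018 TPM on the high side (4.21, SE 0.28; limma adjusted p = 2.11e-13). Others of the 15 were the mitochondrial enzyme Idh3a (4.25), the actin regulator Coro1b (4.18), the epithelial sorting adaptor Ap1m2 (4.16), the splicing factor Srsf6 (4.15), Slc24a5 (4.12), the histone-binding protein Rbbp7 (4.07), Rbmxl1 (4.02), the integrin-linked kinase Ilk (4.00), Grwd1 (4.00) and the RNA kinase Clp1 (3.95). All 15, picked for the size of this same difference, had no overlap between the sides, as had 8.04% of all genes in this direction. They were also called without both sets that stand apart, where 40.3% of all genes were called higher. On the lower side, Gm5 had medians of 16.2 and 4.12 TPM (-1.74, SE 0.42; 138 TPM at 4-cell). The splicing protein gene Snrpd3 had 670, 2068 and 2961 TPM on the low side and 290, 564 and 1137 TPM on the high side (-1.71, SE 0.22; limma adjusted p = 7.3e-08), and -0.66 with detected genes as a covariate (limma adjusted p = 0.129). The RNA polymerase subunit gene Polr2l had -1.31 and -1.13 with the covariate (limma adjusted p = 0.00385). Of the 15 largest lower genes, 13 were not called with the covariate, all but Polr2l and Gtsf1l. The other 12 ran from -1.61 to -1.23 and comprised Defb42, Lgals7, Tspo, Gm3776, Gm20337, Gm10046, Cklf, Hist1h4c, Gtsf1l, Rps27l, Tma7 and BC117090. Of these 15 lower genes, Lgals7, Gm10046, Hist1h4c and BC117090 were not called without both sets.

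The 15 middle morulae were not used in the comparison of the sides, but their score came from the same 3 genes. A slope on it therefore says only that a gene moves with the scoring genes in further embryos. In each gene the change of log2(TPM + 1) per unit of score was fitted within them, over scores from 5.83 to 7.50. Among 8592 genes limma called 365 that had a positive slope (4.25%) and 1 with a negative slope (0.0116%). Of the genes that were higher on the high side, 4715 of 5325 had a slope above 0 (88.5%), and of those that were lower 153 of 600 (25.5%), against 74.6% of all genes. The called genes include Elf3 (slope 2.18, SE 0.34; limma adjusted p = 0.00922), Cldn4 (1.84, SE 0.30; limma adjusted p = 0.00922), Tex19.1 (2.10, SE 0.34) and Actg1, cytoplasmic gamma actin (1.52, SE 0.23). Pgam1 (1.36; limma adjusted p = 0.0318) and Ccna2 (1.39; limma adjusted p = 0.0308) were called as well. Gata3 (0.20; limma adjusted p = 0.729) and Klf6 (0.57; limma adjusted p = 0.46) were not. Positive slopes were called for 1 of 10 trophectoderm factors and 2 of 30 epithelial genes, beside 4.25% of all genes. The counts were 5 of 35 for cell cycle genes and 3 of 19 for the integrated stress response. The slopes rest in part on a pair of embryos, control replicate 15, which had 6480 detected genes, and heat replicate 6, which stood apart on further principal components. Without them 53 genes were called, and with detected genes as a covariate 0 genes were called, with 1210 at an unadjusted p under 0.05 by limma.

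The stage difference was measured in the same 15 middle morulae against the 34 4-cell embryos, with paternal treatment as a covariate. limma with a log2 limit of 1 found 1693 of 9894 genes higher in morulae (17.1%) and 1059 lower (10.7%). Among genes higher on the high side 21.1% rose between the stages and 8.30% fell, and among genes lower on the high side 17.7% rose and 8.67% fell. Of the genes not called between the sides 17.3% rose and 12.4% fell. For all genes tested on the sides the shares were 19.7% and 9.60%, but 62.0% of these are the higher genes themselves. Trophectoderm factors rose between the stages in 5 of 10 and fell in 1, and epithelial genes rose in 18 of 30 and fell in 1. Cell cycle genes, higher on the high side in 30 of 35, rose between the stages in 3 and fell in 3. Lgmn (-0.43; limma adjusted p = 0.551), Ctsc (-0.51; limma adjusted p = 0.344) and Srsf6 (0.31; limma adjusted p = 0.63) were among the genes with the largest difference between the sides and had no called stage difference. Elf3 rose by 5.08, Gata3 by 4.82, Klf6 by 3.98 and Anxa2 by 5.49 on the log2 scale.

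**Figure D4:**
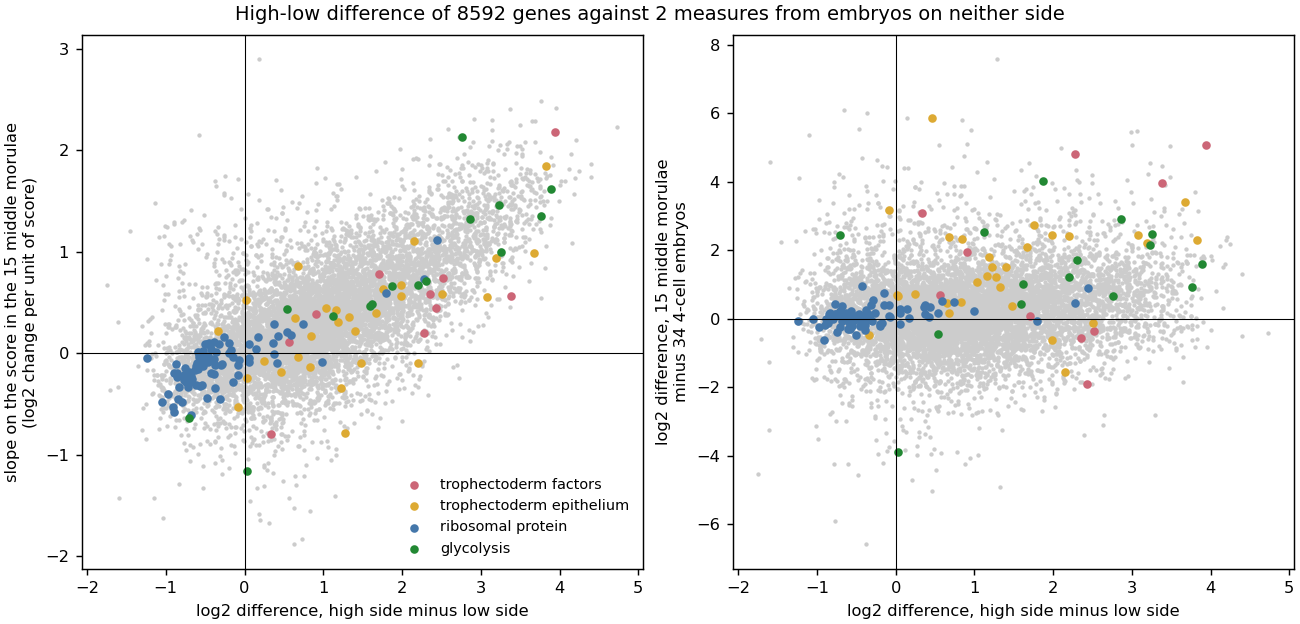
Each grey point is 1 of 8592 genes, placed by its log2 difference between the sides and, on the left, by its slope on the score in the 15 middle morulae or, on the right, by its log2 difference between these and 34 4-cell embryos; coloured points are members of 4 gene lists. On the left the cloud runs upward (88.5% of the genes higher on the high side have a slope above 0). On the right 21.1% of the genes higher on the high side rise and 8.30% fall. The shares are 17.3% and 12.4% for genes not called between the sides and 19.7% and 9.60% for all genes.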

How the data were processed

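Per the labels' protocols, RNA of single embryos was captured on beads and polyadenylated RNA sequenced from Nextera XT libraries. The authors deposited 1 table of TPM values for 23845 genes in 77 embryos, each summing to 1000000, and the submitters' processing notes name Trimmomatic, Bowtie2, RSEM and the build mm10. TPM keeps no depth, so the reads behind each value are unknown. Tbp, which all cells use, was listed at 0 in 2 morulae, so a 0 can be a failed estimate.

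Groups came from the labels, and sides from the score. Genes at 1 TPM or more in at least 14 of 43 morulae were tested on log2(TPM + 1), with a pseudocount of 1, by limma 3.58.1 (R 4.3.3) with an intensity trend, no covariate and Benjamini-Hochberg adjustment at 0.05. The step was also run on simulated data with genes drawn independently. Genes here vary together and the sides were cut on expression, so that run does not bear on the number of calls. Single values were compared by permutation with 100000 resamples. The genes named were the scoring genes, the 15 largest called differences in each direction, up to 4 members of each list with the smallest p, and a short list of markers. The members and lists were chosen with earlier results of these data known. Differences of low genes are understated by the pseudocount. Near-identical gene copies may share reads. Coordinates and promoters are from RefSeq (GRCm38.p6). The sperm files were not used here. Some genes that the rule selects are not reported here.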

Additional observations from a re-analysis of the deposited data

How the results depend on the processing

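Beside 5925 calls between the sides, separate fits called 1357 genes with detected genes as a covariate, 3823 without both sets that stand apart and 2412 with the ribosomal protein share as a covariate, the last 2 settings chosen after seeing the data. Higher calls numbered 5325 and in these settings 1264, 3460 and 2128, of which 1263 and 3437 in the first 2 were also among the 5325, and 3027 under median-ratio scaling. Lower calls numbered 600 and in these settings 93, 363 and 284, of which 76 and 326 in the first 2 were among the 600, and 1786 under median-ratio scaling and 359 in heat morulae alone. The slope in middle morulae was called for 0 genes with the detected-gene covariate and for 53 without the pair of embryos that stand apart. The cause of these changes was not tested. Other pseudocounts, filters, side sizes and scores kept the number of calls within 1.5 times.

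Under median-ratio scaling Gata6 was -0.29 and S100a11 -0.80. With the ribosomal protein share as a covariate Impact was -0.0114 and Odf2 -0.0868. Of 118 named genes tested, 38 were no longer called with the detected-gene covariate, 21 with the ribosomal share (beside the 2 that changed sign) and 8 without both sets.

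Replicate numbers did not pair the embryos: deviations of 21 same-numbered pairs correlated at -0.429 to 0.716, 6 of them over 0.1, and 2 embryos correlated best with their own number. A fit with the replicate block called 5960 genes. Depth could not be weighed, because TPM holds none.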
